A study of Mus musculus with 8 samples.

Results

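The granzymes and perforin, the killing proteins of cytotoxic lymphocytes, were followed across 4 populations of CD8+ T cells sorted from mouse tumors. The members were named by a fixed gene list, Gzma, Gzmb, Gzmc, Gzmd, Gzme, Gzmf, Gzmg, Gzmk, Gzmm and Prf1, and every probe of the unnormalized array table whose gene name matched the list in any case was kept. That gave 12 of 25697 probes, for 9 of the 10 genes among 17830 gene names in all, since no probe carried the name Gzma. A probe was tested when the scanner's detection p-value was under 0.05 on at least 2 of the 8 arrays. By this filter 9 of the 12 probes were tested, among 9864 in all.

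Perforin (Prf1) and the granzymes are stored together in the lytic granules of cytotoxic T and natural killer cells. When a killer cell releases its granules, perforin opens pores in the target cell and the granzymes, a family of serine proteases, enter and cleave proteins that keep the target alive. Each granzyme has its own cleavage preference. In the mouse, the genes of granzymes B to G stand side by side on chromosome 14, and those of granzymes C to G are products of rodent gene duplication without direct human counterparts.

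The cells came from B16.SIY.dsRed tumors, a mouse melanoma line with SIY as model antigen and dsRed as fluorescent label, grown for 14 days in female C57BL/6 mice that received no treatment. The tumors of 10 mice were pooled, so a value stands for a pool and not an animal. Whether each experiment used 10 mice or both shared them is not stated in the labels. The double-positive cells carried both 4-1BB, a costimulatory receptor encoded by Tnfrsf9, and the inhibitory receptor LAG3. The LAG3+ cells carried LAG3 without 4-1BB, and the labels give PD-1 for neither of these populations. The PD-1+ cells carried the inhibitory receptor PD-1, encoded by Pdcd1, without 4-1BB or LAG3. The triple-negative cells had none of the 3 receptors. Each population was hybridised 2 times, once in each of 2 experiments, and this number of arrays limits the precision of every value below. In bulk samples, fewer cells that express a gene and less of its RNA per cell cannot be told apart.

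Between 5522 and 9044 of the 25697 probes were detected per array, the fewest on the PD-1+ arrays (6404 and 5522). The PD-1+ replicates also differed most from each other: the SD of their log2 difference over tested probes was 1.24, against 0.657 to 0.813 in the other populations. The T cell markers Cd8b1 and Cd3e were detected on all 8 arrays, at mean log2 levels of 12.16 to 12.47 and 11.09 to 11.51 over the populations, while the Cd8a probe was detected on 0 of 8. Lag3 averaged 9.34 in double-positive, 9.19 in LAG3+ and 8.67 in PD-1+ cells, against 4.48 in triple-negative cells. The PD-1+ cells, sorted as LAG3-negative, thus held Lag3 transcript well above the triple-negative level (adjusted p = 0.0243 by limma, while with the experiment as a block 0 probes passed in that comparison). Tnfrsf9 averaged 8.90, 7.63 and 7.41 in the same order, against 4.94 in triple-negative cells. Pdcd1 averaged 5.10 in double-positive, 4.97 in LAG3+ and 4.83 in PD-1+ cells, against 4.16 in triple-negative cells. Its levels on the PD-1+ arrays were 5.39 and 4.27, so the cells sorted for PD-1 had no higher mean than those not sorted on it.

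Of the listed members on chromosome 14, 3 were detected by at least 1 probe, Gzmd, Gzme and Gzmg. RefSeq places these 3 next to each other, in the order Ctsg, Gzme, Gzmd, Gzmg, Gzmn, Gzmf, Gzmc, Gzmb. Their promoters, with those of Gzmf and Gzmc, are shown because they closely resemble each other. Each is 300 bases, from 250 before the transcription start to 50 after the first base, in RefSeq assembly GRCm38.p6 and on the minus strand of chromosome 14. Capitals mark matches on either strand to TGTGGT, a core motif of RUNX factors, and to TGACGTCA, the cyclic AMP response element (CRE), and no matches overlap.
Gzmd, chr14:56132544-56132843: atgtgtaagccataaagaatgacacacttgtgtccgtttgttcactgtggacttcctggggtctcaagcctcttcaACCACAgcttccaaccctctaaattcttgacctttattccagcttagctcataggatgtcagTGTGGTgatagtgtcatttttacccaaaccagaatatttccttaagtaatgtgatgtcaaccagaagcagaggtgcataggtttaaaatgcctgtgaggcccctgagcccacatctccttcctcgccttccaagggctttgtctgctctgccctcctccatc
Gzme, chr14:56120576-56120875: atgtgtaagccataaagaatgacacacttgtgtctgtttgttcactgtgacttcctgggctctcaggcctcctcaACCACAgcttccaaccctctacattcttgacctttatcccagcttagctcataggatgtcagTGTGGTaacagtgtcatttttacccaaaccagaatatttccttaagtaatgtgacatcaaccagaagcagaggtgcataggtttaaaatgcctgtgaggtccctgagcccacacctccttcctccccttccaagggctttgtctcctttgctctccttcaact
Gzmg, chr14:56159530-56159829: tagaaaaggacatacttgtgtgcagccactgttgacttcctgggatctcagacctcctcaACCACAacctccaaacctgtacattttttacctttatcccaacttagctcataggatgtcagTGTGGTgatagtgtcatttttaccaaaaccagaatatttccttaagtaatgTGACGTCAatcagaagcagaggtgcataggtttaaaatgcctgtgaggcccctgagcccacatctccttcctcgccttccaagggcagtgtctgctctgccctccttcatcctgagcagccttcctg
Gzmf, chr14:56211358-56211657: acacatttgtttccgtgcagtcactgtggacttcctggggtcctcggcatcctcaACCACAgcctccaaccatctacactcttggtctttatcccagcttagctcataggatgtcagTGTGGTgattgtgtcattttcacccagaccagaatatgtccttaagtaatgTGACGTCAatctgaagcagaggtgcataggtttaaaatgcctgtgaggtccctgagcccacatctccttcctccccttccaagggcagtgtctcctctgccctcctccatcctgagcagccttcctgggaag
Gzmc, chr14:56234608-56234907: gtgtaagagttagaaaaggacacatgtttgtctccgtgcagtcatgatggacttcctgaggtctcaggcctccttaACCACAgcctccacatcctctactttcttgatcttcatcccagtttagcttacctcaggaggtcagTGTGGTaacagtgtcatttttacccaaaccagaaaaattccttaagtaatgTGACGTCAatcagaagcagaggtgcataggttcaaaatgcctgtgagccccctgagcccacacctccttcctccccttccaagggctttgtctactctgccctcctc

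The 10 pairs among these 5 promoters were 86.1 to 94.0% identical over 275 to 299 aligned bases, with Gzmd and Gzme the closest pair at 94.0%. Every one of the 5 held the RUNX motif 2 times, once in each orientation, the first match at position -174 to -195 from the transcription start. This motif occurs in 16.8% of the 32851 RefSeq mouse promoters of this length. The CRE was found in Gzmg, Gzmf and Gzmc and not in the same window of Gzmd and Gzme, and 1.79% of all promoters hold it. The Gzmb promoter could not be aligned with any of the 5 over at least 250 bases. It held 2 RUNX matches, 1 match to TGANTCA, the AP-1 motif, and 1 to TTCNNNGAA, the STAT motif. Of all promoters, 7.81% hold the AP-1 motif and 8.3% the STAT motif. Both motifs and the T-box motif GGTGTGA, which 3.98% hold, were searched in every member promoter, and the 5 above held none of them. These values describe the promoters only. Transcripts and probes were not compared, so how well the array tells these genes apart was not tested.

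Granzyme D gave the widest range of all the members. Its brighter probe had raw intensities of 3399 and 907.7 in double-positive cells in experiments 1 and 2, 604.1 and 155.1 in LAG3+ cells, and 180.8 and 72.3 in PD-1+ cells, against 92.3 and 82.8 in triple-negative cells. After background correction and normalization the log2 levels were 11.21 and 9.85 in double-positive, 8.57 and 7.28 in LAG3+ and 7.53 and 4.18 in PD-1+ cells, against 4.23 and 4.20 in triple-negative cells. Levels near 4 are the background of this scale. Both double-positive arrays stood above every other array, both LAG3+ arrays stood above both triple-negative arrays, and PD-1+ cells held Gzmd signal in experiment 1 and none above background in experiment 2. The means ran in the order double-positive, LAG3+, PD-1+, triple-negative, and the arrays overlapped between LAG3+ and PD-1+ cells and between PD-1+ and triple-negative cells.

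The Gzmd difference between double-positive and triple-negative cells was 6.32 ± 1.07 on the log2 scale (SE, 2 arrays each, 95% interval 3.79 to 8.85). Since the probe was not detected in triple-negative cells, this fitted value and its interval depend on the offset and the background correction: it was 4.04 with no background correction and 4.85 with an offset of 50. Under the main setting the bound was at least 66.5-fold higher, taken against the floor of detected signal on the triple-negative arrays. Such a bound allows for the undetected level only. It leaves out the spread between arrays, so here and below "at least" is not a lower confidence limit. Bounds for the other members depend on these settings in the same way. The adjusted p of limma's moderated test, Benjamini-Hochberg over all tested probes, was 0.0603, so the probe did not pass the threshold of 0.05. With the experiment number as a block it did, with an adjusted p of 0.0355. The experiments gave differences of 6.98 and 5.65.

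**Figure D1:**
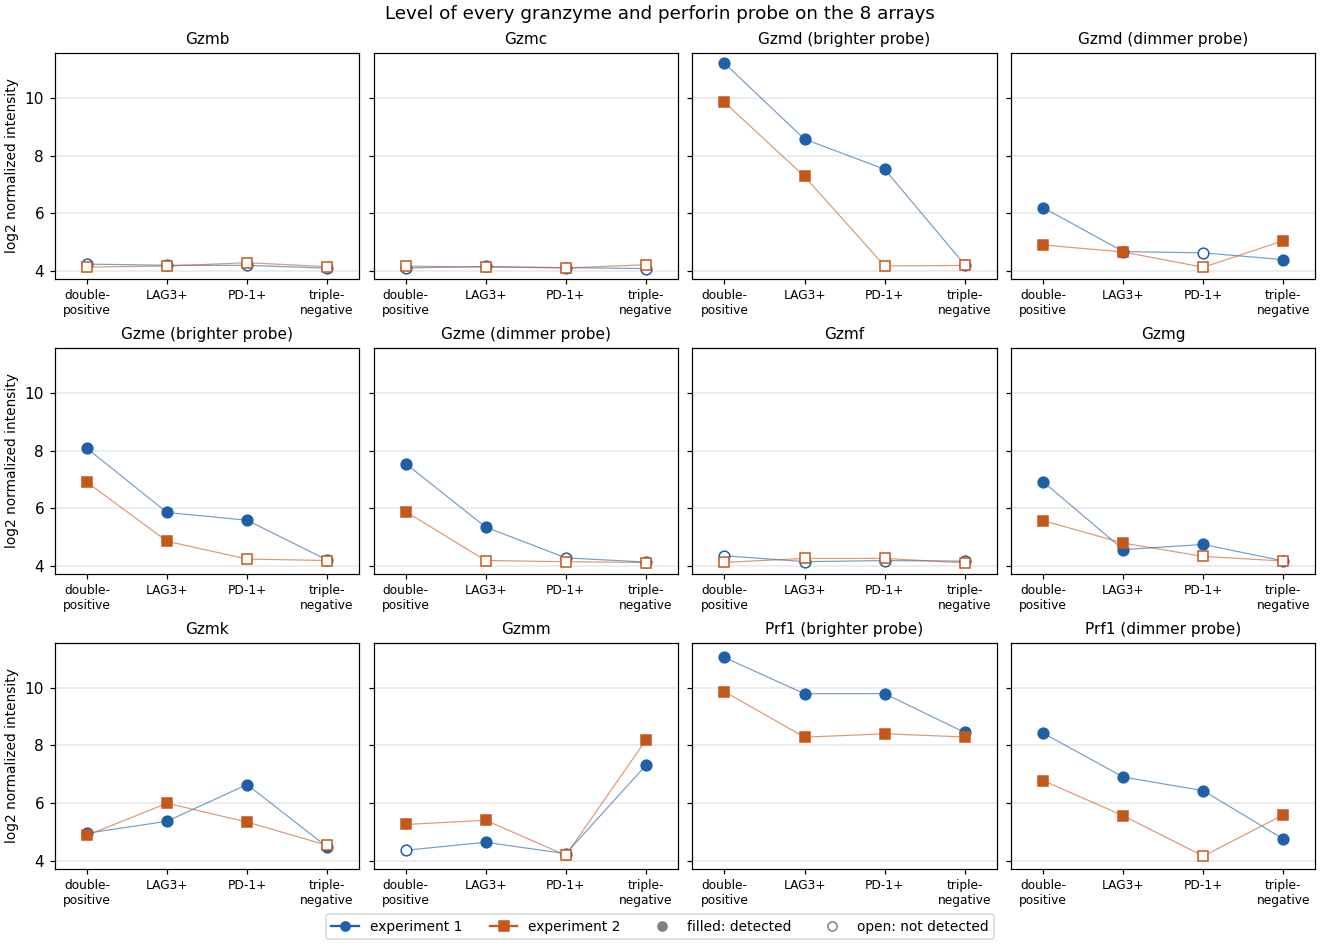
Normalized log2 intensity of each of the 12 probes on the 8 arrays, with populations on the horizontal axis, circles for experiment 1 and squares for experiment 2, and open symbols where the probe was not detected. Thin lines join the arrays of an experiment. The brighter Gzmd probe runs from 11.21 in double-positive cells of experiment 1 to 4.18 in PD-1+ cells of experiment 2, Gzmm is highest in triple-negative cells, and Gzmb, Gzmc and Gzmf stay at background throughout.

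A dimmer probe for Gzmd did not give the same pattern. Its log2 levels were 6.20 and 4.90 in double-positive, 4.68 and 4.66 in LAG3+ and 4.63 and 4.13 in PD-1+ cells, against 4.39 and 5.05 in triple-negative cells. The double-positive and triple-negative arrays overlapped, and the difference of 0.83 ± 0.49 had opposite signs in the experiments (1.80 and -0.15, adjusted p = 0.610, limma). The probe was detected on both triple-negative arrays, where the brighter one was detected on neither. Which transcripts of the cluster each probe binds was not tested, as no probe sequence was used here, so the level called Gzmd may hold signal of its neighbours.

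Granzyme E, encoded next to granzyme D, was read by 2 probes, both brightest in double-positive cells. The brighter one had log2 levels of 8.08 and 6.90 in double-positive, 5.85 and 4.86 in LAG3+ and 5.59 and 4.24 in PD-1+ cells, against 4.21 and 4.19 in triple-negative cells. The dimmer one had 7.55 and 5.88 in double-positive, 5.35 and 4.19 in LAG3+ and 4.28 and 4.15 in PD-1+ cells, against 4.14 and 4.12 in triple-negative cells. On both probes the double-positive arrays were the highest pair and the triple-negative arrays were not detected. The difference between double-positive and triple-negative cells was 3.29 ± 0.61 for the brighter probe (at least 8.10-fold higher, adjusted p = 0.0759, limma) and 2.59 ± 0.61 for the dimmer one (at least 4.73-fold higher, adjusted p = 0.121). With the experiment as a block, the brighter probe passed at 0.0355 and the dimmer one did not at 0.0847. With no background correction the differences were 1.45 and 1.06.

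Granzyme G completed the trio of neighbours. Its log2 levels were 6.92 and 5.57 in double-positive, 4.57 and 4.79 in LAG3+ and 4.75 and 4.33 in PD-1+ cells, against 4.17 and 4.17 in triple-negative cells. Only the double-positive arrays exceeded 5, and the LAG3+ and PD-1+ arrays overlapped. The difference from triple-negative cells was 2.07 ± 0.47, at least 3.41-fold higher in double-positive cells, with an adjusted p of 0.112 by limma and 0.107 with the block. With no background correction it was 0.76.

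Perforin was detected in every population. The brighter Prf1 probe had log2 levels of 11.05 and 9.87 in double-positive, 9.79 and 8.29 in LAG3+ and 9.80 and 8.40 in PD-1+ cells, against 8.45 and 8.29 in triple-negative cells. The double-positive arrays lay above those of every other population within each experiment, and the other 3 populations overlapped with one another. The difference between double-positive and triple-negative cells was 2.08 ± 0.69 (95% interval 0.44 to 3.73, adjusted p = 0.260, limma; 0.0938 with the block). The dimmer Prf1 probe gave 2.43 ± 0.91, from levels of 8.43 and 6.78 in double-positive cells against 4.76 and 5.60 in triple-negative cells (adjusted p = 0.319).

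For perforin the place of PD-1+ cells differed between raw and normalized values. Raw intensities of the brighter probe were 617.8 and 136.4 in PD-1+ cells, below the 806.6 and 261.3 of triple-negative cells in the same experiments, whereas the normalized levels were 0.73 ± 0.69 higher. Mean raw intensities over all probes were 123 and 90.9 on the PD-1+ arrays, against 216 and 135 on the triple-negative arrays. In double-positive cells the raw intensities, 3078.2 and 917.7, were above those of triple-negative cells as well.

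The Prf1 promoter, on the plus strand of chromosome 10, is shown because perforin, from another chromosome, also had its highest arrays in double-positive cells, with the RUNX motif again in capitals.
Prf1, chr10:61297586-61297885: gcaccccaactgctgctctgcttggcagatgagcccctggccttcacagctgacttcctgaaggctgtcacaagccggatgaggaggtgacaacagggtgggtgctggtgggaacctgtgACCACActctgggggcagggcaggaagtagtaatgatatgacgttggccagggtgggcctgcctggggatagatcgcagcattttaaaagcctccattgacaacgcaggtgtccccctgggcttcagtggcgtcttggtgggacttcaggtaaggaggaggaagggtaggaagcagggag
It held the RUNX motif 1 time and no CRE in this window. The RUNX motif was also in 1 of the 2 promoters of Gzmm, highest in triple-negative cells, at -247, and in that of Gzma. The same Gzmm promoter held a STAT match, and the other Gzmm promoter and that of Gzmk held a T-box match.

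Granzyme M, which cleaves after methionine and is also encoded on chromosome 10, ran the other way. Its log2 levels were 4.37 and 5.26 in double-positive, 4.64 and 5.40 in LAG3+ and 4.25 and 4.19 in PD-1+ cells, against 7.31 and 8.18 in triple-negative cells. Both triple-negative arrays stood above all 6 others, and neither PD-1+ array had detectable signal. The difference of double-positive from triple-negative cells was -2.93 ± 0.48 (95% interval -4.06 to -1.80), nearly the same in both experiments (-2.94 and -2.92), and -1.42 with no background correction. Its adjusted p was 0.0538 by limma, and 0.0355, past the threshold, with the experiment as a block.

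The other populations gave Gzmm differences of the same sign from the same triple-negative arrays. In LAG3+ cells it was -2.72 ± 0.48 (adjusted p = 0.103, limma; 0.0949 with the block). In PD-1+ cells it was -3.53 ± 0.48, a bound of at least 7.40-fold lower, with an adjusted p of 0.0515 and of 0.0560 with the block. Without the block, the authors' normalized values gave 0.0412 by limma, past the threshold. Of the settings that kept all arrays, this one and 1 probe per gene were the only ones past it. The difference itself was -1.60 with no background correction.

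Granzyme K, a tryptase-like member encoded on chromosome 13 beside Gzma, had its highest arrays in the middle populations. Its log2 levels were 4.96 and 4.88 in double-positive, 5.37 and 5.99 in LAG3+ and 6.64 and 5.35 in PD-1+ cells, against 4.48 and 4.54 in triple-negative cells. On this normalized scale the LAG3+ and PD-1+ arrays overlapped with each other and lay above the double-positive and triple-negative arrays. Raw Gzmk intensities were 130 and 77.5 in PD-1+ cells, against 103.5 and 87.1 in triple-negative cells in the same experiments. In experiment 2 the raw PD-1+ value was thus the lower one, so the place of PD-1+ cells depends on the normalization, as for perforin. The difference from triple-negative cells was 1.49 ± 0.47 in PD-1+ cells (adjusted p = 0.226, limma), 1.17 ± 0.47 in LAG3+ cells (0.521) and 0.41 ± 0.47 in double-positive cells (0.883).

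**Figure D2:**
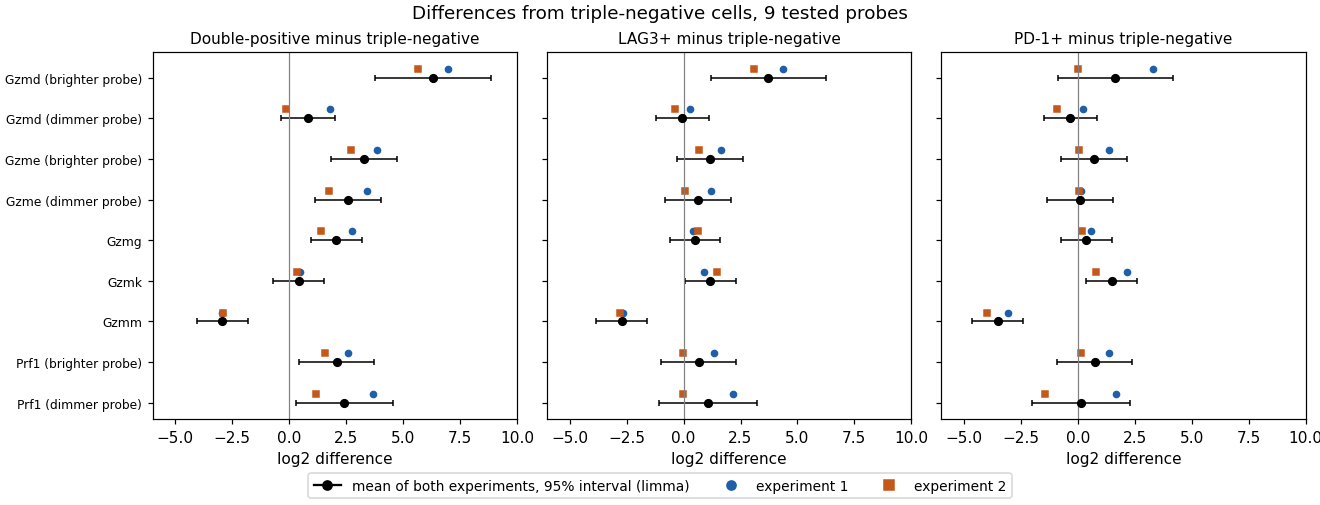
Log2 differences of double-positive, LAG3+ and PD-1+ cells from triple-negative cells for the 9 tested probes, with limma's mean and 95% interval in black and the difference within each experiment in colour. The interval of the brighter Gzmd probe in double-positive cells spans 3.79 to 8.85, and that of Gzmm -4.06 to -1.80. In PD-1+ cells the 2 experiments lie apart for the brighter Gzmd probe, at 3.31 and -0.02.

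Granzymes B, C and F could not be read. Granzyme B, which cleaves after aspartate and activates caspases, had raw intensities between 74.2 and 88.4 on the 8 arrays, and the lowest detection p-value was 0.199. The ranges were 69.4 to 84.7 for Gzmc and 73.9 to 91.8 for Gzmf, with lowest detection p-values of 0.368 and 0.0514. All 3 were detected on 0 of 8 arrays. The platform's annotation assigns 1 probe to Gzma, under another name in the deposited table, and it too was detected on 0 of 8 arrays, at 70.5 to 91 raw units. These probes give no level for the 4 genes, and nothing on their expression can be read from them.

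In the comparison of double-positive with triple-negative cells, 0 of the 9 member probes passed limma's test after adjustment, and 7 had an unadjusted p under 0.05. Over all 9864 tested probes, 0.852% passed and 12.9% had such an unadjusted p. With the experiment as a block, 3 member probes passed, the brighter probes of Gzmd and Gzme and the probe of Gzmm, against 0.841% of all probes. The member probes are not independent readings, since Gzmd, Gzme and Prf1 have 2 probes each and the cluster genes arose by duplication. The dimmer Gzme probe passed the detection filter only through its double-positive arrays, and detection decided which members were tested, so the count lends no support by itself. Arrays of both populations did not overlap for 43.8% of all tested probes in this comparison. That share was 38.5% in LAG3+ and 39.4% in PD-1+ against triple-negative cells, 31.4% in double-positive against LAG3+ cells, 44.4% in double-positive against PD-1+ cells and 39.9% in LAG3+ against PD-1+ cells, so a lack of overlap between 2 arrays and 2 was common.

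**Figure D3:**
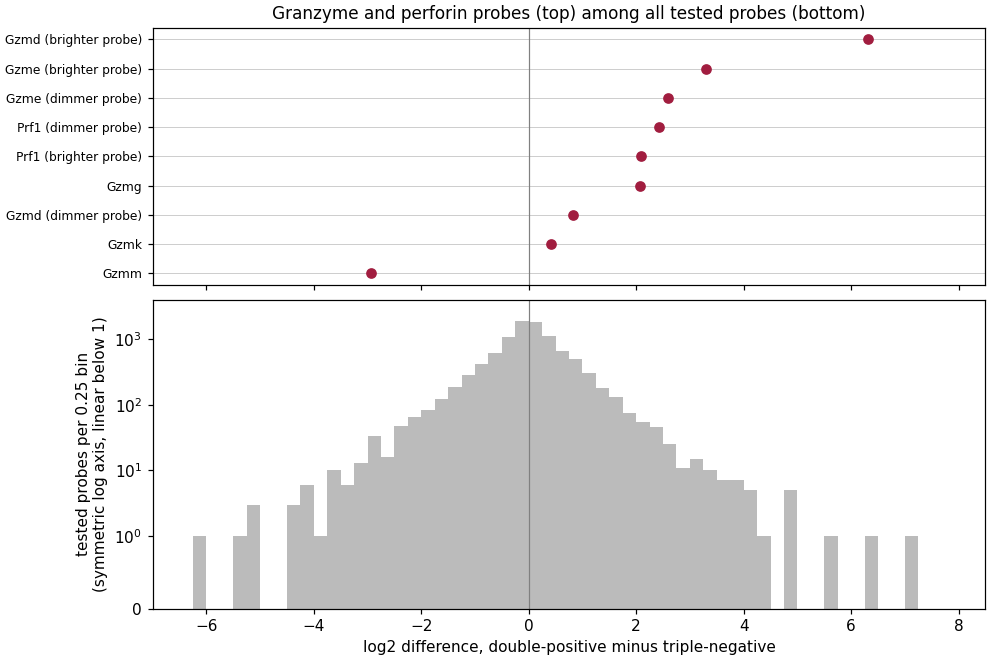
Log2 difference between double-positive and triple-negative cells for the 9 tested member probes (top) and as a histogram of all 9864 tested probes in bins of 0.25 (bottom, symmetric log count axis). The brighter Gzmd probe lies at 6.32, a fitted value against undetected signal, and the Gzmm probe at -2.93.

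Both populations that carry LAG3 were compared next. In double-positive against LAG3+ cells the differences were 2.60 ± 1.07 for the brighter Gzmd probe, 2.13 ± 0.61 and 1.95 ± 0.61 for the Gzme probes and 1.56 ± 0.47 for Gzmg. Counted from the highest of 9864 probes, these stood at places 2, 5, 12 and 38. The dimmer Gzmd probe differed by 0.88 ± 0.49, at place 330. Prf1 differed by 1.42 ± 0.69 on its brighter probe and Gzmm by -0.21 ± 0.48. The experiments gave 2.63 and 2.57 for the brighter Gzmd probe, and 1.52 and 0.24 for the dimmer one. By limma 0 member probes and 0% of all probes passed after adjustment, while 4 member probes and 2.6% of all probes had an unadjusted p under 0.05. This comparison shares its double-positive arrays with the one against triple-negative cells. There the 4 probes placed above stood at 2, 34, 80 and 173, and the dimmer Gzmd probe at 1211. The dimmer Gzme probe, at place 12 here, had passed the detection filter only through its double-positive arrays.

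Double-positive against PD-1+ cells gave 4.67 ± 1.07 for the brighter Gzmd probe (adjusted p = 0.124, limma) and 2.58 ± 0.61 for the brighter Gzme probe (0.134). Here 0 member probes passed, against 0.142% of all probes (0.0101% with the block), with 6 member probes and 14.3% of all probes at an unadjusted p under 0.05. Without PD-1+ replicate 1, the array that held Gzmd signal, 2 member probes passed, against 4.43% of all probes, Gzmd at 6.35 (adjusted p = 0.0186, limma) and Gzme at 3.25 (0.0443). Without PD-1+ replicate 2, Gzmd gave 3.00 (0.109) and Gzme 1.90 (0.192), and neither passed. In both fits the lone PD-1+ array was assumed to vary like the other populations. Gzmk differed by -1.08 ± 0.47 in this comparison.

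In LAG3+ against triple-negative cells the brighter Gzmd probe differed by 3.72 ± 1.07, at least 11-fold higher in LAG3+ cells, with an adjusted p of 0.325 by limma and 0.175 with the block. With no background correction the difference was 1.75. The brighter Gzme probe differed by 1.16 ± 0.61 and Gzmg by 0.51 ± 0.47. By limma 0 member probes and 0.132% of all probes passed, and 3 member probes and 9.04% of all probes had an unadjusted p under 0.05. In PD-1+ against triple-negative cells these counts were 0 member probes and 0.284% of all, then 2 member probes and 14.3% of all. In LAG3+ against PD-1+ cells 0 member probes passed, against 0.0811% of all, and 0 had an unadjusted p under 0.05, against 11.1%.

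Over the 8 arrays, the brighter Gzmd and Gzme probes correlated at 0.962 (Pearson's r), and Gzme and Prf1 at 0.949. The Gzme probes correlated with each other at 0.949, the Prf1 probes at 0.920 and the Gzmd probes at 0.685. Gzmm correlated at -0.568 with the brighter Gzmd probe and -0.631 with Gzmk. These describe 8 points that share 4 populations, 2 experiments and 1 normalization. By the same measure the probes of other genes most like Gzmd were those of Asns, Hnrnpab and Rbbp5 (0.986, 0.982 and 0.977). Those most like Gzme were Asb2, Fancd2 and Gtse1 (0.968, 0.967 and 0.953). Those most like Gzmg were Tmem237, Fancd2 and Psmd11 (0.954, 0.946 and 0.938). Fancd2 and Gtse1 were detected on only 3 of the 8 arrays, so most of their values lay at background. All these probes were picked as the highest r among all tested probes of other genes. Prf1 was most like Rpa2, Zdhhc16 and Nup133 (0.990, 0.968 and 0.958), Gzmk like Klc3 (0.962), and Gzmm like Lypd6b and Gadd45g (0.990 and 0.986).

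Genes that load, activate and release the granules gave no call. Of 19 listed genes 17 were tested in double-positive against triple-negative cells, 0 rose and 0 fell by limma, and 6 had an unadjusted p under 0.05. Over all tested probes 0.852% passed and 12.9% had such an unadjusted p. Their median difference was 0.45, against 0.00 over all tested probes. The 3 furthest from 0 were Lamp2, a lysosomal membrane glycoprotein, at 2.72 ± 0.87, Vamp8, a protein of vesicle fusion, at 1.66 ± 0.49, and Lamp1, the membrane protein that reaches the cell surface when granules are released, at -1.53 ± 0.58. Ctsc, the protease that activates progranzymes, differed by 0.75 ± 0.44. Rab27a, which docks granules at the membrane, differed by 1.11 ± 0.44.

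Of 11 inhibitors and granule cathepsins 6 were tested, 0 rose and 0 fell by limma, and the median was 1.40. An unadjusted p under 0.05 was found for 5 of the 6, against 12.9% of all tested probes. The 5 did not all rise: the cathepsin gene Ctsw differed by -0.89 ± 0.30 and Ctsb by 1.09 ± 0.36. Over the 6, 4 differences were positive and 2 negative. Serpina3f, a serpin of an expanded mouse family, differed by 3.56 ± 0.94 (adjusted p = 0.167), with levels of 8.95 and 9.12 in double-positive cells against 6.07 and 4.87 in triple-negative cells. Serpinb6a, an intracellular serpin, differed by 2.80 ± 0.66 (0.122). Serpinb6b, known in the mouse as an inhibitor of granzyme A, differed by 1.72 ± 0.32 (0.0755). Over 16 alternatives Serpinb6b passed under 4, Serpina3f under 3 and Serpinb6a under 1. The probe for Serpinb9, the inhibitor of granzyme B, was not tested for want of detection.

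Among 16 regulators of granzyme genes 10 were tested, 0 rose and 1 fell by limma, while 0.852% of all tested probes passed. An unadjusted p under 0.05 was found for 1 of the 10, against 12.9% of all tested probes. Tcf7, which encodes TCF-1, a transcription factor of naive and stem-like T cells, had levels of 4.35 and 4.37 in double-positive, 5.35 and 6.29 in LAG3+ and 6.33 and 6.69 in PD-1+ cells, against 7.70 and 8.01 in triple-negative cells. Of its 2 probes only the brighter one was used, which was detected on 6 of the 8 arrays. Tcf7 fell by 3.49 on the log2 scale in double-positive cells (SE 0.39, adjusted p = 0.0177, limma), a fitted value against levels near background. Leaving out any array of double-positive or triple-negative cells ended that call, with adjusted p-values of 0.102 to 0.169. The T-box factors Tbx21 and Eomes, activators of effector genes, differed by 0.59 ± 0.42 and 0.66 ± 0.34, and Il2rb, a chain of the interleukin-2 receptor, by 0.76 ± 0.35. Irf4, a transcription factor induced by T cell receptor signals, differed by -1.05 ± 0.54. The median of the 10 was 0.10.

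Of 7 other genes of the granzyme B locus 3 were tested, 0 rose and 0 fell by limma, and the median was 0.65. An unadjusted p under 0.05 was found for 1 of the 3, against 12.9% of all tested probes. Gzmn, the granzyme gene between Gzmg and Gzmf, differed by 0.69 ± 0.36 from triple-negative cells, and the mast cell chymase gene Cma1 by -0.46 ± 0.29. The protease gene Mcpt8, also among the mast cell and basophil markers below, differed by 0.65 ± 0.27 and was detected on only 2 arrays. Its levels were 4.86 and 4.90 in double-positive cells, against 4.11 to 4.29 on the other arrays. It thus passed the detection filter only through its double-positive arrays, so the count of 1 of 3 lends no support by itself. In the other comparisons 0 genes of these 4 lists passed limma's adjusted threshold, against 0 to 0.284% of all tested probes. The most with an unadjusted p under 0.05 were 4 of the 6 tested inhibitors and cathepsins. That was in LAG3+ against triple-negative cells, where 9.04% of all tested probes had one. In PD-1+ against triple-negative cells it was 3 of these 6, against 14.3%. In every other list or comparison at most 2 had one, against 2.6 to 14.3% of all tested probes.

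**Figure D4:**
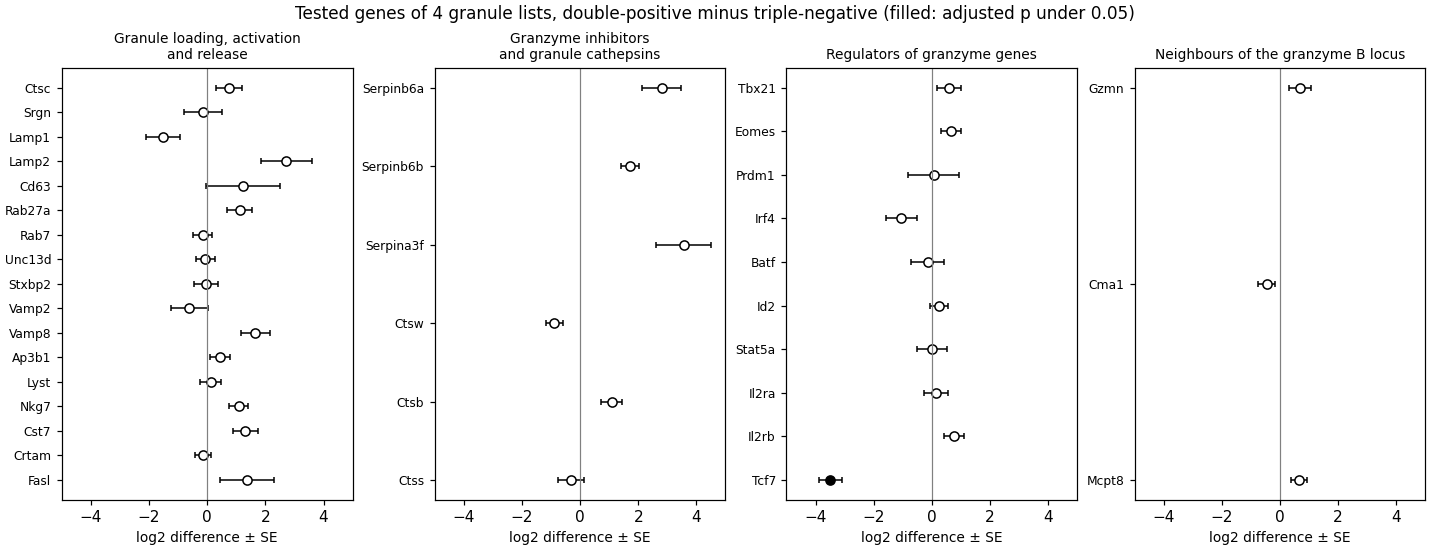
Log2 difference ± SE between double-positive and triple-negative cells for the tested genes of 4 lists: granule loading, activation and release, inhibitors and cathepsins, regulators, and neighbours of the granzyme B locus. Filled points have an adjusted p under 0.05. The single filled point is Tcf7 at -3.49.

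Natural killer cells and mast cells also make granzymes or granule proteases, so their markers stand beside these values. Of 6 probed natural killer markers, 5 were detected on some array and the defining Ncr1 on 0 of 8. Their summed normalized signal was 269 to 355 in double-positive, 162 to 335 in LAG3+ and 190 to 582 in PD-1+ cells, against 154 to 168 in triple-negative cells. By count, 3 and 3 of the 6 were detected on the double-positive arrays, and 5 and 5 on the triple-negative arrays, where Gzmm was highest. Klrb1c averaged 4.38 in double-positive and 4.98 in triple-negative cells and Tyrobp 4.21 and 5.61, while Klre1 averaged 7.52 and 6.00 and Klrk1 5.95 and 5.12. For 6 mast cell and basophil markers the sum was 28.9 to 29.3 in double-positive cells, against 40.3 to 258 in triple-negative cells. By count, 3 and 1 of them were detected on the double-positive arrays, and 1 and 1 on the triple-negative arrays. Hdc averaged 4.45 in double-positive and 6.70 in triple-negative cells and Cpa3 4.31 and 4.33, while Mcpt8 averaged 4.88 and 4.23. Ms4a2, Fcer1a and Gata2 were detected on 0 of 8 arrays. Markers of melanoma cells (5 of 7 detected) summed to 196 to 2282 in double-positive, 415 to 2187 in LAG3+ and 718 to 4391 in PD-1+ cells, against 98.7 to 127 in triple-negative cells. Markers of macrophages and monocytes summed to 28.2 to 28.9 in double-positive and 224 to 763 in PD-1+ cells, against 44.8 to 138 in triple-negative cells. Those of B cells summed to 8.26 to 8.82 in double-positive and 247 to 274 in PD-1+ cells, against 41.4 to 97.2 in triple-negative cells. The part of natural killer, mast cell, basophil, macrophage, B cell and melanoma cell RNA in the differences was not tested.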

How the data were processed

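CD8+ tumor-infiltrating T cells of 4 sorted populations were profiled on 8 Illumina mouse bead arrays (Cy3, 1 colour), 2 per population. The authors deposited unnormalized probe intensities with a detection p-value per probe and array, per the file headers, and a table of their own normalized intensities whose making is not stated and which served as an alternative. The sources used here do not state how RNA was amplified.

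The neqc function of limma 3.58.1 (R 4.3.3) corrected the background, with negative controls estimated from detection p-values, added an offset of 16, normalized by quantiles and gave log2 values. Probes, not genes, entered lmFit and eBayes, in a single fit of the 8 arrays by population without a block, which left 4 residual degrees of freedom to which the prior added 2.91. Tests were two-sided, with Benjamini-Hochberg adjustment over all 9864 tested probes of each of 6 comparisons. An exact test of 2 arrays against 2 cannot go below p = 0.333, so none was used. The offset compresses differences of dim probes, and a bound depends on the normalization. The titles give a shared experiment number, which pairs the arrays: the differences between experiments correlated at 0.0949 to 0.228 over the 6 pairs of populations. Alternatives were the experiment block, other background corrections, an offset of 50, no detection filter, 1 probe per gene, array weights and leaving arrays out.

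Every member probe is named. Genes of the lists, sort genes and cell markers with several probes are shown by their brightest probe only, and their other probes are not reported. Of other genes, the text names for each list those past the threshold and the 3 furthest from 0. Some more were chosen for their known role or their sign after values were seen. Also named are the 3 most alike probes for each member, except 2 of Gzmk's and 1 of Gzmm's, and the sort and cell markers. The members and lists were chosen with earlier results of these data known. Labels name no separate animals, so p-values measure the spread between these pooled samples. The procedure was tested on simulated data.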

Additional observations from a re-analysis of the deposited data

How the results depend on the processing

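In double-positive against triple-negative cells, 0 member probes passed, but 3 did with the experiment as a replicate block, 3 with array weights and 3 without both PD-1+ arrays. Leaving out 1 array gave 0 to 3, with 3 without either PD-1+ array. All probes passing there numbered 84, against 127 without background correction, 25 without the detection filter, 255 with array weights and 240 without both PD-1+ arrays, and 0 to 240 with 1 array left out. In PD-1+ against triple-negative cells 1 member probe, Gzmm, passed with the authors' values and 1 with 1 probe per gene (leaving out 1 array, 0 to 1, with 1 without PD-1+ replicate 1). The count of all probes was 28, against 0 with the block, 43 without background correction, 44 with the authors' values and 0 with array weights (leaving out 1 array, 0 to 337). In LAG3+ against triple-negative cells it was 13, against 0 with the block, 21 without background correction, 23 with an offset of 50, 57 with array weights and 52 without both PD-1+ arrays (0 to 52). In double-positive against PD-1+ cells it was 14, against 1 with the block, 4 with 1 probe per gene and 3 with array weights (0 to 437), and member probes passing ranged from 0 to 2, with 2 without PD-1+ replicate 1. In LAG3+ against PD-1+ cells it was 8, against 0 with the block, 2 without background correction, 2 with an offset of 50 and 0 with array weights (0 to 199). In double-positive against LAG3+ cells it was 0, and 1 without the detection filter. The cause of these moves was not tested. The block changed no other call of a member probe.

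Of 819 member differences under alternatives, 20 passed the threshold and 15 changed sign. All sign changes of the brighter probes came from leaving out 1 array. As ranges over the arrays left out, Gzmm in double-positive against LAG3+ cells lay between -0.66 and 0.24. In LAG3+ against PD-1+ cells, Gzme lay between -0.23 and 1.12, Gzmg between -0.066 and 0.35, Gzmk between -0.96 and 0.34 and Prf1 between -0.81 and 0.69. Prf1 in LAG3+ against triple-negative cells lay between -0.087 and 1.42, and Gzmd in PD-1+ against triple-negative cells between -0.033 and 3.32. The size of the Gzmd difference in double-positive against triple-negative cells was 4.04 without background correction, and 4.85 with an offset of 50, against 6.32. Tcf7, tried like the serpins after seeing the data, passed under 11 of 16 alternatives, between -3.65 and -1.61, and did not pass without the detection filter (adjusted p = 0.0594, limma). Signal over background limits Gzmb, Gzmc and Gzmf, and the dim PD-1+ arrays limit what their undetected probes show.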
